A study of Arabidopsis thaliana with 128 samples.

Results

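The vcs mutant was compared with WT (wild type) seedlings of Arabidopsis thaliana as they stood before transcription was blocked. This comparison rests on 8 of the 128 RNA-seq libraries of a study of mRNA decay: 4 libraries of vcs and 4 of WT, all taken at 0 min. Members were taken by their labels, genotype and time, though the comparison and the gene lists were chosen with earlier results of these data known. Values are given as nuclear RPM, reads per 1000000 reads of nuclear genes. Whole seedlings were 5 d old and had grown on vertical plates with sucrose at 22 °C under constant light. In the other libraries of the study, seedlings of 4 genotypes were followed over time after vacuum infiltration with 1 mM cordycepin, an adenosine analogue that stops transcription. Each library came from a pool of 50 to 60 seedlings, and the labels number the 4 of a genotype as replicates. WT was the accession Col-0 carrying a SOV transgene from Landsberg erecta, and vcs carried the vcs-7 allele in the presence of the SOV transgene. Both groups therefore had the transgene. Col-0 without it is the genotype that the study calls sov, and vcs-7 without it is the genotype vcs sov. The statistical fit also took in the 4 libraries of sov and the 4 of vcs sov at 0 min. They served to filter genes, to estimate the spread and to measure the effect of vcs-7 without the transgene.

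An mRNA of the plant cytoplasm is usually degraded after its poly(A) tail has been shortened. Decapping enzymes then remove the 5′ cap and the exoribonuclease XRN4 degrades the body from the 5′ end, while the exosome and SOV degrade RNA from the 3′ end. VARICOSE (VCS) is the scaffold that holds the decapping enzyme DCP2 and its partners together, and mutants without it are known for arrested seedlings with small, pale leaves and disordered veins. SOV (SUPPRESSOR OF VARICOSE) is a DIS3L2-type exoribonuclease that is not functional in Col-0, which is why the transgene matters here. The comparison asks which transcripts stood at another level where the scaffold was missing and SOV was active.

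Reads assigned to genes numbered 17.0 to 34.3 M per library, so that 3 reads equalled at most 0.350 nuclear RPM in any one of the WT libraries. Nuclear genes took 49.1% ± 1.80 of these reads in WT and 63.2% ± 1.32 in vcs (SD, n = 4), and plastid genes took 49.5% and 35.3%. The nuclear shares did not overlap and differed by 14.1 percentage points (two-sided exact permutation test, p = 0.0286, the smallest that 4 against 4 allow). The 100 most abundant nuclear genes took 24.5% ± 0.58 of nuclear reads in WT and 20.3% ± 0.86 in vcs (SD, n = 4; exact permutation p = 0.0286). Libraries of 1 genotype correlated at 0.986 to 0.992 in WT and 0.978 to 0.992 in vcs across genes, against 0.941 to 0.952 between the genotypes. Replicate 1 of vcs stood apart from the other vcs libraries, with correlations of 0.978 to 0.980 where the other 3 had 0.987 to 0.992 among themselves. It held 261 genes at least 1 log2 unit above and 104 below the mean of the other 3, where no other library of the 8 held more than 87 on either side. Some of the nuclear total may hold reads of other origin. The 88 genes from AT2G07660 to AT2G07842 on chromosome 2, which include copies of organelle genes, took 2.84% of nuclear reads in WT and 1.87% in vcs, and 4 rRNA genes took 0.0372% to 0.123% and 0.0295% to 0.448%. Leaving out both sets moved no call count by more than 1.5 times.

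VCS, the targeted gene, checked the labels. Its level was 158, 131, 121 and 129 nuclear RPM in the 4 WT libraries and 6.85, 6.97, 6.54 and 8.06 in the 4 vcs libraries, 19.0-fold lower on the means, and the groups lay far apart. The log2 change was -4.15 (SE 0.09; limma adjusted p = 5.27e-16). SOV stood at 163, 247, 211 and 185 nuclear RPM in WT and at 734, 901, 766 and 871 in vcs, 4.06-fold higher although both genotypes carried the transgene (log2 change 2.03, SE 0.15; limma adjusted p = 8.55e-09). In Col-0 without the transgene its level was 41.0 ± 9.51 (SD, n = 4). From sov to vcs sov, both without the transgene, SOV also rose, by 2.61 in log2 (SE 0.15). VCR, the adjacent gene related to VCS, stood at 55.5, 55.9, 44.5 and 46.6 in WT and between 71.4 and 73.9 in vcs, a log2 change of 0.52 (SE 0.08; limma adjusted p = 3.02e-05). Reads shared by VCS and VCR could have been assigned to either. Of the 10 measured genes flanking VCS, VCR included, 5 were higher and none was lower, where 36.3% of all genes tested were higher and 13.1% lower; edgeR called 2 of the 10 higher and 4 lower. AT3G13310, a DnaJ-domain protein gene on the other side of VCS, rose most, from 15.8 ± 1.87 to 60.6 ± 12.2 nuclear RPM (SD, n = 4), a log2 change of 1.89. Of the 10 flanking SOV, 2 were higher and 1 was lower, against 1 and 3 by edgeR. AT1G77660, a SET7/9-family protein gene, rose from 4.36 ± 1.17 to 12.2 ± 2.45 (SD, n = 4), by 1.398 on the log2 scale.

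**Figure D1:**
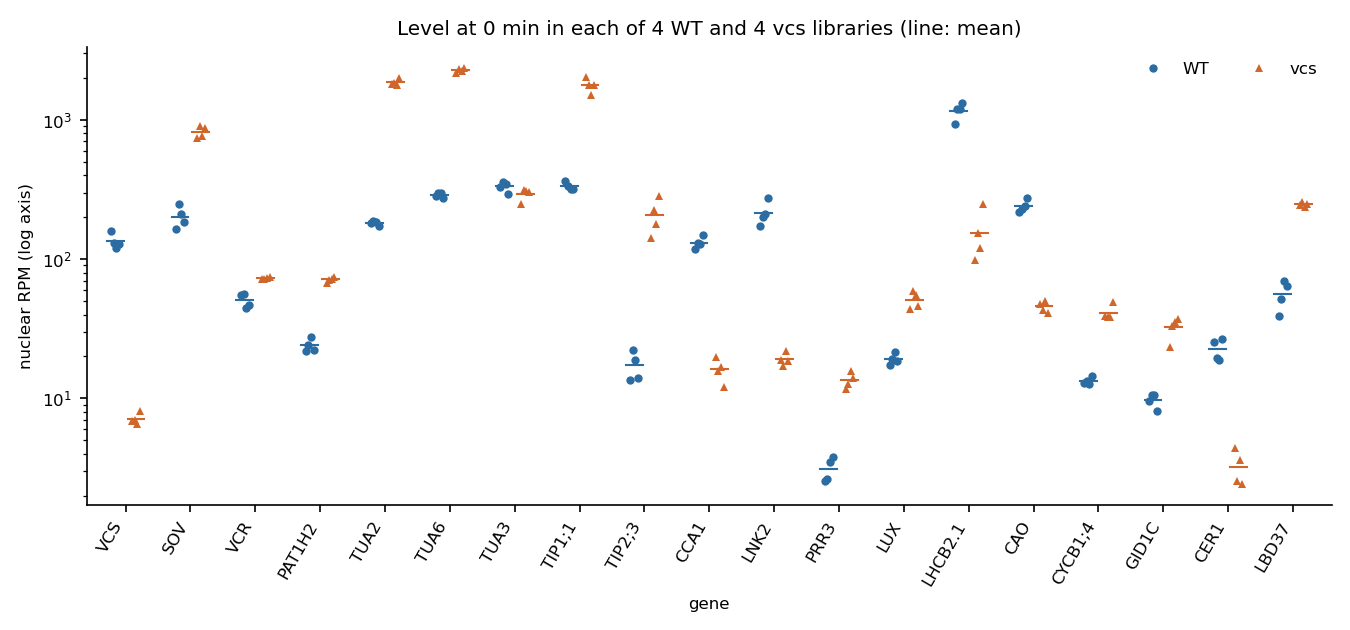
Levels of 19 genes named in the text in each WT library (blue circles) and each vcs library (orange triangles) at 0 min, in nuclear RPM on a log axis, with the mean of 4 as a line. The groups overlap for TUA3 alone among the genes drawn; VCS lies between 6.54 and 8.06 in vcs, below all WT libraries.

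The fit covered 19343 nuclear genes whose mean reached 1 RPM in some genotype. At an adjusted p under 0.05, limma called 7022 of them higher in vcs (36.3%) and 2528 lower (13.1%). Of these, 1392 rose and 360 fell by at least 1 log2 unit. The 4 vcs and the 4 WT libraries did not overlap for 8463 genes (43.8%). The balance of directions depended on the scaling. Relative to RPM as deposited, with plastid reads in the total, 13062 genes were higher and 842 lower; after subtracting each library's nuclear median, 3937 rose and 5155 fell; and edgeR with TMM factors on the recovered reads called 4478 and 4479. The median gene changed by 0.17 (log2) on nuclear RPM, 0.50 on the deposited scale, -0.05 after centring and 0.00 with TMM, and every log2 change below can be read against that 0.17. Members of a gene list are counted here on nuclear RPM, and edgeR's counts follow where a count differed by more than 1.5 times. Each such count can be read against the 36.3% higher and 13.1% lower over all genes tested. The lists were chosen with earlier results of these data known, so their counts are descriptions and not independent tests. In seedlings sequenced whole, fewer cells of a type and less RNA per cell cannot be told apart.

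Level and direction went together. Genes under 2 nuclear RPM had a median change of 0.39, those of 10 to 50 had 0.17, those of 200 to 1000 had -0.08, and the 82 genes over 1000 had -0.38 with 14 higher and 46 lower. The 4 of them that rose by at least 1 log2 unit were TUA2, TUA6, TIP1;1 and COR47, described below with their families. A gene had to reach 1 RPM as deposited in only 1 genotype, so a low gene could pass through the group where it was high. Nuclear genes also took a larger share of the deposited RPM in vcs than in WT. The positive median under 2 nuclear RPM is therefore partly set by the filter and is no separate result. By kind of transcript, protein-coding genes had 36.4% higher and 13.04% lower, whereas none of 26 small nucleolar RNA genes was higher and 6 were lower, with a median of -0.39. The part of library preparation in the small RNAs was not tested.

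**Figure D2:**
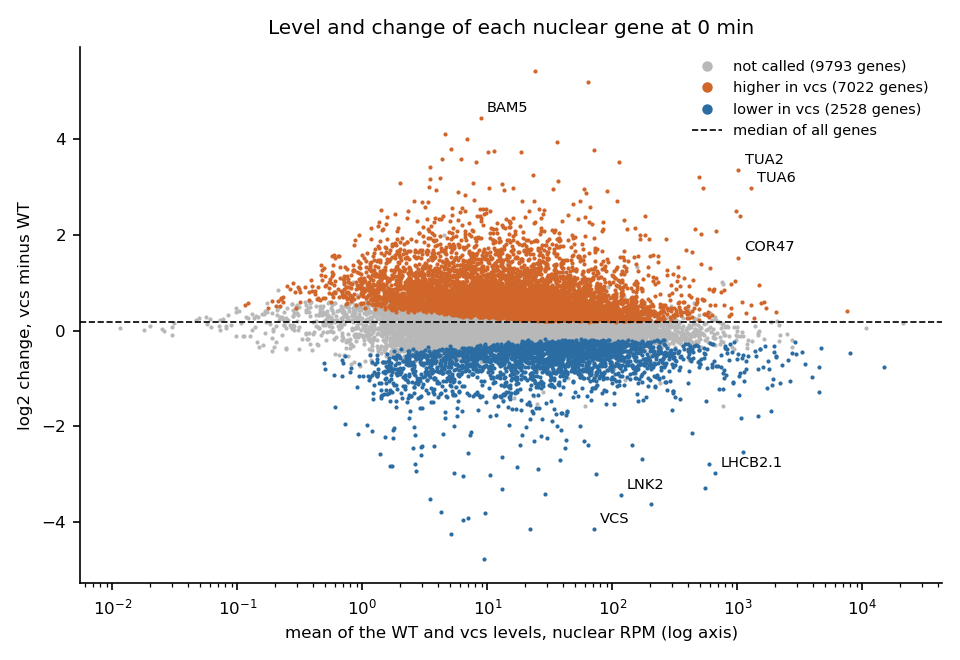
Each point is 1 of 19343 nuclear genes, with the mean of its WT and vcs levels in nuclear RPM (log axis) and its log2 change from WT to vcs. Genes called higher are orange, genes called lower blue and the rest grey, and the dashed line is the median of 0.17; called genes over 1000 nuclear RPM lie mainly below it.

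The 15 largest rises among genes of at least 5 RPM ran from 3.52 to 5.42 (log2). These rises, and the falls after them, were picked by size among called genes whose groups do not overlap, so the gap between their groups is no further result. Several stood under 1 RPM in WT or vcs and reached the minimum of 5 RPM only through the other of these groups, where they were high. AT5G44440, a berberine bridge enzyme-like oxidase gene, stood at 1.28, 0.953, 0.371 and 0.116 nuclear RPM in WT and at 72.0, 38.1, 40.0 and 40.8 in vcs (log2 change 5.42, SE 0.34). AT1G20070, whose protein is uncharacterized, stood at 2.80, 2.44, 3.41 and 2.73 and 171, 117, 91.0 and 124 (log2 change 5.21, SE 0.21). BAM5, a beta-amylase of the phloem, had 13 reads in all in WT and stood at 26.9, 18.6, 8.30 and 15.9 in vcs, 65.2-fold higher. AT5G24080, a protein kinase gene, had 2 reads over the 4 WT libraries and 571 in vcs. Its vcs mean was at least 148-fold higher than the level of 3 reads over the 4 WT libraries. Lipid transfer protein genes stood on both sides. AT2G37870 and AT4G33550 rose, by 4.01 and 3.94, while AT4G22513 and AT4G22490 fell by 3.97 and 3.82 on the log2 scale. AT5G10760, an aspartyl protease gene, and 5PTASE11, an inositol polyphosphate phosphatase gene, rose by 3.80 and 3.60. 5PTASE11 was 29.9, 6.78, 4.72 and 6.38 in vcs replicates 1 to 4, so replicate 1 stood above the other 3.

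The 15 largest falls ran from -4.77 to -3.004 (log2) and held VCS itself. AT3G05727, a small secreted pollen-coat-like protein gene, stood at 13.4, 26.7, 12.5 and 21.6 in WT, and vcs had 13 reads over 4 libraries (log2 change -4.77, SE 0.24). AT5G33370, a GDSL lipase gene, had 9.10, 11.1, 9.57 and 11.1 in WT and 5 reads over the 4 vcs libraries. FTM1, a stearoyl-ACP desaturase-family gene, went from 41.6 ± 7.68 to 1.96 ± 0.774, and GASA6, a gibberellin-regulated peptide gene, from 52.7 ± 2.27 to 4.76 ± 2.0999 (SD, n = 4). The authors' deposited table calls all 15 rises in the same direction, with log2 fold changes of 3.30 to 5.09, and 13 of the 15 falls, with -4.37 to -3.09; no value of that table was used for the other 2, AT3G05727 and AT5G33370. In absolute terms, the largest losses of nuclear RPM were those of AT2G07732, a Rubisco large-chain gene copy within the stretch of chromosome 2 named above, from 18750.0 ± 1273 to 11010.0 ± 721, and of AT1G15405, a non-coding RNA gene, from 6285 ± 679 to 2648 ± 637. PYK10, the main glucosidase of root and hypocotyl ER bodies, went from 6406 ± 387 to 8574 ± 869, which was not called by edgeR (adjusted p = 0.0606) or by limma after centring (adjusted p = 0.133). RBCS1A, the most abundant Rubisco small-subunit gene, had the largest gain in mean, from 19829 ± 2917 to 22282 ± 4507 (SD, n = 4), but its libraries overlapped and it was not called (limma adjusted p = 0.434).

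Decapping genes themselves stood higher. Of 15 decapping and 5′-to-3′ decay genes, 11 were higher and VCS was the only one lower, with a median change of 0.53. PAT1H2, a decapping activator that joins LSM1-7 to the decapping enzyme, stood at 21.9, 24.2, 27.7 and 22.3 nuclear RPM in WT and at 67.8, 71.3, 71.9 and 74.6 in vcs (log2 change 1.56, SE 0.11; limma adjusted p = 3.16e-09). Its relatives PAT1H1 and PAT1 rose by 1.003 and 0.92, and their groups too lay apart. LSM1B, a subunit of the ring that binds shortened tails, rose by 0.84, and DCP1, the partner of the decapping enzyme DCP2, by 0.81. Of 13 exosome, SKI and uridylation genes only SOV was higher, and RRP44A, an exoribonuclease of the exosome related to SOV, fell from 57.9 ± 3.68 to 38.3 ± 1.65 (SD, n = 4; log2 change -0.59, limma adjusted p = 6.07e-06). On RPM as deposited 11 of these 13 were higher, and edgeR called 1 higher and 2 lower. Of the 3 nonsense-mediated decay factors UPF1, UPF2 and UPF3, 2 were higher, with 1 by edgeR; of 6 deadenylase genes 2 were, and of 15 silencing genes 3 were higher and 3 lower. edgeR gave 2 and 5 for the silencing genes and 1 and 0 for the deadenylases.

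Tubulin genes split within the family. Microtubules are built from alpha- and beta-tubulin, and Arabidopsis has several genes for each. TUA2 stood at 182, 187, 185 and 172 nuclear RPM in WT and at 1795, 1847, 1777 and 2002 in vcs, 10.2-fold higher (log2 change 3.35, SE 0.09; limma adjusted p = 1.05e-14). TUA6 went from 285, 300.4, 296 and 273 to 2184, 2300.0, 2229 and 2359.9, 7.86-fold, and TUA4 from 304, 313, 277 and 288 to 1681, 1609.9, 1599 and 1789, 5.65-fold. In all 3 genes the replicate spread was small beside the difference. TUA3 stood at 329, 358, 348 and 293 in WT and at 249.97, 312, 310.1 and 304 in vcs, and TUA5 at 316, 315, 311 and 275 and 247, 310.1, 307 and 322. The groups overlapped in both and neither was called, with log2 changes of -0.18 (SE 0.12) and -0.04 (SE 0.11) that turned positive, at 0.19 and 0.32, on RPM as deposited. TUA1, the pollen-type gene, was lower by 0.35 on nuclear RPM, which also turned to 0.01 on that scale. In all, 3 of the 6 were higher and 1 lower, with 3 and 2 by edgeR, which called TUA3 lower too. Per length, in the authors' deposited RPKM, the 6 genes had 42.1 for TUA2, 69.2 for TUA6, 71.7 for TUA4, 79.4 for TUA3, 72.4 for TUA5 and 9.11 for TUA1 in WT. In vcs that table gives 499, 631, 467, 82.1, 82.2 and 8.32 RPKM, so TUA2, TUA4 and TUA6 stood below TUA3 and TUA5 in WT, TUA4 by little, and above them in vcs. TUA2 and TUA4, and likewise TUA3 and TUA5, are near-identical copies between which reads can be assigned wrongly, which makes the level of each of a pair uncertain. Beta-tubulins moved less: 6 of 9 were higher and 1 lower, TUB3 most, by 0.72 from 166 ± 10.51 (SD, n = 4), and edgeR called 3 higher and 2 lower.

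Aquaporins are the water channels of plant membranes. Of the 6 tonoplast (vacuolar membrane) genes fitted of 10, 4 were higher and 1 lower, with a median of 1.46. TIP2;3 stood at 13.6, 22.3, 18.9 and 14.1 nuclear RPM in WT and at 143, 226, 178 and 282 in vcs (log2 change 3.53, SE 0.20; limma adjusted p = 1.00e-09). TIP2;2 went from 109.7, 124, 126 and 109 to 746, 972, 816 and 1272 and TIP1;1 from 364, 333, 318 and 319 to 2011, 1790.3, 1493 and 1781, 8.11-fold and 5.30-fold. Every vcs library lay above every WT library in these 3 genes. TIP1;2 rose by 0.53, while TIP2;1 did not pass, at 589 ± 65.8 and 728 ± 187 (SD, n = 4; log2 change 0.28, SE 0.15). In the authors' deposited table the RPKM per length of TIP1;2 was 358 in WT and 597 in vcs, of TIP1;1 131 and 790, of TIP2;1 212 and 300, of TIP2;2 49.2 and 459, and of TIP2;3 6.77 and 94.0. TIP1;1 thus passed TIP1;2 as the gene with the highest RPKM of these in vcs. Of 13 plasma membrane aquaporin genes 7 were higher and 1 lower (6 and 2 by edgeR), PIP2;5 by 2.03 from a low level of 4.29 ± 0.416, and PIP2;2 by 1.33 from 189 ± 3.76 (SD, n = 4).

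**Figure D3:**
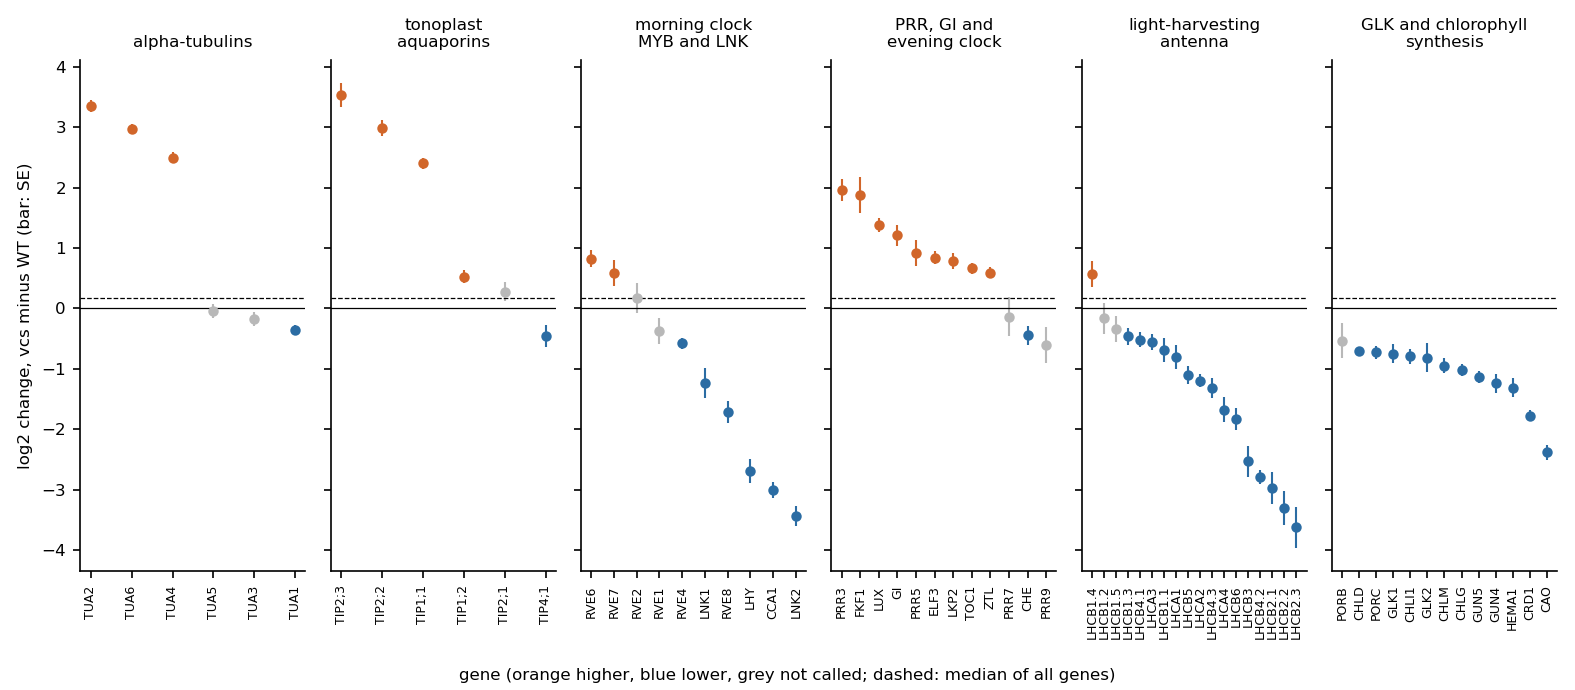
Log2 changes from WT to vcs, with the SE, of all fitted members of 6 gene families at 0 min. Higher genes are orange, lower genes blue and genes not called grey; TUA2, TUA6 and TUA4 stand at 2.50 to 3.35 while the other 3 alpha-tubulins lie below 0, which turns positive on RPM as deposited, and all chlorophyll synthesis genes lie below 0.

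Clock genes of the morning list and of the evening and PRR list moved mostly in opposite directions. The plant clock is a loop in which MYB factors of the morning, CCA1 and LHY, bind evening elements in the promoters of evening genes and repress them, while LNK and RVE proteins activate them. Seedlings were in constant light, so the state of each library within a daily rhythm is not given by the labels. Of 10 morning genes 6 were lower and 2 higher, with 7 and 1 by edgeR. LNK2, a coactivator, stood at 171, 199, 209.5 and 275 nuclear RPM in WT and at 19.0, 17.0, 22.002 and 18.5 in vcs, 11.2-fold lower (log2 change -3.43, SE 0.17; limma adjusted p = 1.35e-10). CCA1 went from 118, 129.6, 129 and 149.9 to 19.9, 15.8, 16.9 and 12.004, and LHY from 309, 267, 285 and 335 to 70.05, 40.0, 52.2 and 29.7. The groups were far apart in all 3. RVE8 and LNK1 fell by 1.72 and 1.23 on the log2 scale, and RVE6, a relative of RVE8, rose by 0.82. Of 12 evening and PRR genes fitted 9 were higher and 1 lower, on edgeR too. PRR3 stood at 2.57, 2.65, 3.49 and 3.77 in WT and at 11.6, 12.7, 15.702 and 14.1 in vcs, and FKF1, a light receptor of flowering time, at 4.43, 2.33, 3.27 and 2.44 and 7.67, 13.2, 13.7 and 17.38. The repressor LUX rose by 1.38 (SE 0.11; limma adjusted p = 2.49e-08), GI by 1.21, PRR5 by 0.92 and TOC1, the counterpart of CCA1 in the loop, by 0.66. vcs replicate 1 held the lowest vcs level of FKF1, GI and PRR5 and the highest of TOC1.

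Promoters are shown for the evening genes because CCA1 and LHY are known to bind the evening element in this class. The letters AAAATATCT were searched on both strands of the 250 bases before the annotated start (RefSeq, TAIR10.1). They occur in 4 of the 12 windows of the evening and PRR list (33.3%) and 1 of 10 morning windows. Of the 19059 windows of protein-coding genes tested, 478 hold them (2.51%). Of the 1367 windows of genes called higher by at least 1 log2 unit 4.83% hold it, and of the 348 called lower 2.299%. The match is in capitals, which appear as AGATATTTT where it lies on the other strand. It overlaps none of the other 7 motifs searched. It lies 151 bases before the start in TOC1 (chr5:24674713-24674962, plus strand), 187 in PRR5 (chr5:8358547-8358796, minus strand), 53 in LUX (chr3:17182792-17183041, plus strand) and 186 in FKF1 (chr1:25508389-25508638, plus strand), and these genes rose by 0.66, 0.92, 1.38 and 1.88. A match is a description of letters only, and PRR3 and GI, which also rose, have none in this window.
TOC1: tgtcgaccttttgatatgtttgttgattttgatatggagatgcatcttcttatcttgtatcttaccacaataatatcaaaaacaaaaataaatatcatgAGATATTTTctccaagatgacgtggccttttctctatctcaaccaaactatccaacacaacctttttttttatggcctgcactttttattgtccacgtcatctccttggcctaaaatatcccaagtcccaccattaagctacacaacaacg
PRR5: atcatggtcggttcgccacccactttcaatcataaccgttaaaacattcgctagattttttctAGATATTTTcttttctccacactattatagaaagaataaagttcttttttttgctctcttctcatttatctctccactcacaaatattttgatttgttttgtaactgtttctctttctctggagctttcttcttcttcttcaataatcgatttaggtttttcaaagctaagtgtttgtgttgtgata
LUX: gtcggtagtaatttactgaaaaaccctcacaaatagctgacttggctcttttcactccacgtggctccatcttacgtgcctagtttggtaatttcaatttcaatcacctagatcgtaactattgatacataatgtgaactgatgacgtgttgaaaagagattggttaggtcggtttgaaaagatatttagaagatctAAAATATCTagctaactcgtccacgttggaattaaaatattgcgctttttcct
FKF1: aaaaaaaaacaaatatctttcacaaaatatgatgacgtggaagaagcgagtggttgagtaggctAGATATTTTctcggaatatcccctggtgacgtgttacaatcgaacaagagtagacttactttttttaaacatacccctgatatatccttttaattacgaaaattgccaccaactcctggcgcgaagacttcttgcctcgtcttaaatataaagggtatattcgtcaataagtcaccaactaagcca

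Genes for light harvesting and chlorophyll stood lower. Antenna proteins bind chlorophyll around the photosystems. Of 18 antenna genes 15 were lower and 1 was higher, with a median of -1.15; RPM as deposited gave 11 and 1, and edgeR 15 and 0. LHCB2.1 stood at 925, 1192, 1196 and 1328 nuclear RPM in WT and at 98.8, 153, 121 and 247 in vcs (log2 change -2.98, SE 0.26; limma adjusted p = 3.33e-07). LHCB2.2 went from 830.2, 902, 993 and 1240.5 to 75.0, 95.3, 83.9 and 162, and LHCB2.3 from 365, 320.4, 302 and 527 to 41.0, 26.8, 18.9 and 37.0. These 3 near-identical genes encode the mobile antenna of photosystem II, and their groups did not overlap, though reads can be assigned wrongly among them. LHCB4.2 fell by 2.80, LHCB3 by 2.53 and LHCB6 by 1.83 on the log2 scale. Abundant members changed less: CAB1 went from 9229 ± 676 to 6739.5 ± 973 and CAB2 from 4256 ± 472 to 2711 ± 710.2 (SD, n = 4), with log2 changes of -0.46 and -0.69, and neither was called on RPM as deposited (limma adjusted p = 0.537 and 0.132). LHCB1.4 went the other way, from 1049, 1379, 1208 and 1321 to 1692, 2028, 1386 and 2385 (log2 change 0.57; limma adjusted p = 0.038), and it lost the limma call when any of 5 libraries was left out, WT replicates 1, 3 and 4 and vcs replicates 2 and 4, with adjusted p of 0.0524 to 0.12. It was not called by edgeR or after centring either.

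Chlorophyll synthesis was lower at most steps. Of 13 genes fitted, 12 were lower and none higher, with a median of -0.95. CAO, which makes chlorophyll b, stood at 217, 227, 241 and 277 nuclear RPM in WT and at 47.9, 43.3, 50.4 and 41.3 in vcs (log2 change -2.38, SE 0.13; limma adjusted p = 1.37e-10). CRD1, a cyclase subunit, went from 2125, 2215, 2224 and 2482 to 739, 612, 663 and 634. HEMA1, at the entry to tetrapyrrole synthesis, GUN4 and GUN5, of the magnesium chelatase step, and CRD1 fell by 1.31, 1.24, 1.14 and 1.77 on the log2 scale. All vcs libraries lay below all WT libraries in these genes. The nuclear photosystem genes LHCB5 and LHCA4, the Rubisco activase gene RCA and DRT112, a plastocyanin gene, were among the 10 largest losses of nuclear RPM, with log2 changes of -1.10, -1.68, -0.76 and -1.06. Of 9 Rubisco small-subunit and Calvin cycle genes 7 were lower, RBCS2B by 0.98 and SBPASE by 0.89. On RPM as deposited 3 of the 9 were lower and 2 higher. The share of plastid reads, 49.5% in WT and 35.3% in vcs, was lower along with these lists, and its part in them was not tested.

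Cell division genes stood higher. Of 22 genes that act at G2 and mitosis 19 were higher and none lower, with a median of 0.61; edgeR and centring each called 12 higher and none lower. CYCB1;4, a mitotic cyclin gene, stood at 12.9, 13.2, 12.8 and 14.4 nuclear RPM in WT and at 38.8, 38.5, 38.3 and 49.1 in vcs (log2 change 1.58, SE 0.11; limma adjusted p = 3.09e-09). CDKB2;1, its plant-specific kinase partner, went from 20.3, 15.9, 17.9 and 21.0 to 50.4, 44.9, 47.2 and 53.6. AUR1, an Aurora kinase of the spindle, rose by 1.07. Of 19 D-type cyclin and S phase genes 14 were higher, CYCD1;1 by 1.59 from 12.7 ± 0.557 (SD, n = 4), and edgeR called 10 higher and 2 lower. CDK inhibitors, which brake the same kinases, were higher as well: 8 of 10 rose and 1 fell, with a median of 1.02, and edgeR called 6 and 2. SIM, which acts in cells that leave division, stood at 5.95, 3.39, 3.86 and 4.41 in WT and at 20.55, 17.9, 18.5 and 13.9 in vcs, and KRP4 at 15.05, 11.9, 14.99 and 14.5 and 37.7, 36.5, 46.7 and 33.0. The groups did not overlap in either. Of 25 histone genes 13 were higher, HTA13 by 1.11, and leaving out vcs replicate 1 gave 19. edgeR gave 10 higher and 2 lower and centring 6 and 2, and histone genes too have near-identical copies.

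The MSA element, which MYB3R factors bind in mitotic genes, was searched by its core AACGG on both strands of the same windows. It occurs in 14 of the 22 windows of the G2 and mitosis genes (63.6%), in 21.7% of the 19059 windows, and in 19.8% and 18.4% of windows of genes called higher and lower by at least 1 log2 unit. CYCB1;3 (chr3:3627274-3627523, minus strand) and CYCB2;3 (chr1:7137829-7138078, minus strand) are the B-type cyclin genes with the largest rises among those holding the core. They are shown for that reason, so their rises were part of the choice. Each holds 3 matches, in capitals, with CCGTT where the match lies on the other strand. CYCB1;3 and CYCB2;3 rose by 1.26 and 1.001, from 6.57 ± 0.507 and 13.8 ± 2.16 nuclear RPM in WT (SD, n = 4). CYCB1;4, which rose by 1.58, has no match in this window.
CYCB1;3: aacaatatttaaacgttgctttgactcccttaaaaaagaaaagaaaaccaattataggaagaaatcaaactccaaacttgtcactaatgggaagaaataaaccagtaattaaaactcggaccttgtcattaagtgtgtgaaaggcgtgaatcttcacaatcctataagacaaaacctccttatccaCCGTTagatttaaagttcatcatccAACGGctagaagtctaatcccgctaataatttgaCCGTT
CYCB2;3: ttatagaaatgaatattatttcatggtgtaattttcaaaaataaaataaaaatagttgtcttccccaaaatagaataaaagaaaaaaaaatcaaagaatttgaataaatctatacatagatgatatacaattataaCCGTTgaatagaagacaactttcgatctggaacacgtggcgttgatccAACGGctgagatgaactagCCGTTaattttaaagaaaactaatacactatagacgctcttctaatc

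Chaperone genes were higher with few exceptions. Of 14 HSP70, HSP90, HSP101 and heat shock factor genes fitted 13 were higher and none lower, with a median of 0.90. HSC70-2, a cytosolic HSP70, stood at 13.9, 21.4, 20.4 and 18.8 nuclear RPM in WT and at 95.6, 138, 99.9 and 123 in vcs (log2 change 2.58, SE 0.24; limma adjusted p = 7.16e-07), and the abundant HSC70-3 went from 284 ± 55.6 to 739 ± 113 (SD, n = 4). Small heat shock proteins had 10 of 12 higher, but most from trace levels: summed over the list they stood at 9.63 to 14.0 in WT and 22.0 to 57.5 in vcs. HSP17.6B, whose groups did not overlap, went from 4.43, 4.45, 5.12 and 4.59 to 11.96, 14.2, 12.2 and 10.3.

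Among hormone genes, the receptors of gibberellin rose. Gibberellin is sensed by 3 receptors, with all 3 higher in vcs: GID1A from 23.8, 20.4, 26.0 and 17.1 nuclear RPM to 49.7, 62.6, 60.3 and 63.2, GID1B from 16.8, 25.1, 17.81 and 17.42 to 54.5, 60.2, 53.4 and 55.5, and GID1C from 9.57, 10.6, 10.6 and 8.13 to 23.56, 33.3, 35.2 and 37.1. The 3 log2 changes were 1.42, 1.53 and 1.67 (SE 0.12, 0.18 and 0.15; limma adjusted p = 7.61e-08, 4.08e-06 and 7.99e-08), and no receptor's groups overlapped. RGL1, a DELLA repressor that the receptors remove, fell from 22.1 ± 5.36 to 8.35 ± 2.096 (SD, n = 4), by 1.36 on the log2 scale. In all, 5 of 12 gibberellin genes were higher and 1 lower, with 3 and 1 by edgeR. Of 9 type-A response regulators, early targets of cytokinin, 3 rose: ARR8 from 16.2, 15.4, 21.2 and 22.2 to 72.1, 64.2, 78.4 and 65.1, ARR5 by 1.2996, and ARR6 as well. Of 20 AUX/IAA repressors of auxin signalling 13 were higher and none lower, IAA28 most, by 0.93, whereas centring and edgeR each called 9 higher and 3 or 2 lower. EBF1 and EBF2, the F-box proteins that remove the ethylene factor EIN3, rose by 1.19 and 1.69, and 12 of the 16 ethylene genes did not pass, 4 being higher; edgeR called 3 higher and 1 lower. Without vcs replicate 1, 7 of the 16 were higher.

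Most genes of the abscisic acid lists were higher. Of 15 dehydration, cold and abscisic acid response genes 13 were higher and none lower, with a median of 1.36. NCED3, the rate-limiting enzyme of abscisic acid synthesis under drought, stood at 9.57, 8.68, 8.46 and 4.59 nuclear RPM in WT and at 59.6, 34.2, 25.5 and 39.6 in vcs (log2 change 2.25, SE 0.25; limma adjusted p = 2.80e-06). KIN1, a cold-induced protein gene, went from 9.57, 12.5, 8.98 and 9.23 to 45.5, 40.1, 50.3 and 39.5, and the dehydrin gene COR47 from 499, 553, 505 and 493 to 1696, 1515, 1616 and 1139. COR47 was among the 10 largest gains of nuclear RPM. Of 17 receptor and clade A phosphatase genes 13 were higher and 1 lower. The phosphatases, which switch the pathway off, held the largest of these: HAI1 rose by 1.95 from 1.14 ± 0.230, ABI1 by 1.54 from 27.2 ± 6.18 and PP2CA by 1.103 from 21.8 ± 2.18 (SD, n = 4). Of 16 salicylic acid genes 6 were higher and 2 lower, near the 36.3% and 13.1% of all genes tested. ACD6, a defence regulator, went from 28.0, 27.8, 32.0 and 29.2 to 98.8, 125, 118 and 110.2. ICS1, which makes the precursor of salicylic acid, fell by 0.90. Of 27 genes of early stress or touch response 8 rose and 3 fell, smaller shares than over all genes tested. edgeR called 4 of them higher and 3 lower. ZAT6, a zinc finger factor, rose by 1.46.

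Among jasmonate genes, the counts of the JAZ list depended on 1 library. CORI3, a marker of jasmonate response, stood at 10.499, 9.95, 6.90 and 8.54 nuclear RPM in WT and at 172, 148, 75.7 and 143 in vcs (log2 change 3.79, SE 0.37; limma adjusted p = 1.95e-06), above WT in every vcs library. Of 11 synthesis and response genes 7 were higher and none lower, AOC2, an allene oxide cyclase, by 1.302 and VSP2, a storage protein, by 1.25. LOX2, the plastid lipoxygenase, went from 179 ± 25.6 to 435 ± 156 (SD, n = 4; log2 change 1.19) with overlapping groups. Of the 12 JAZ repressors, which jasmonate both removes and induces, JAZ11 and JAZ12 rose by 0.73 and 0.78 and the other 10 were not called. JAZ5 stood at 102, 65.3, 58.4 and 49.8 in WT and at 147, 28.9, 20.2 and 36.4 in vcs, and JAZ8 at 46.4, 23.8, 14.3 and 12.3 and 53.4, 9.70, 5.06 and 13.5, so that vcs replicate 1 held the highest level in both. edgeR called 2 JAZ genes higher and 2 lower. Without vcs replicate 1 the JAZ genes had 2 higher and 5 lower, and the synthesis and response genes 6 higher and none lower. What set that library apart was not tested.

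**Figure D4:**
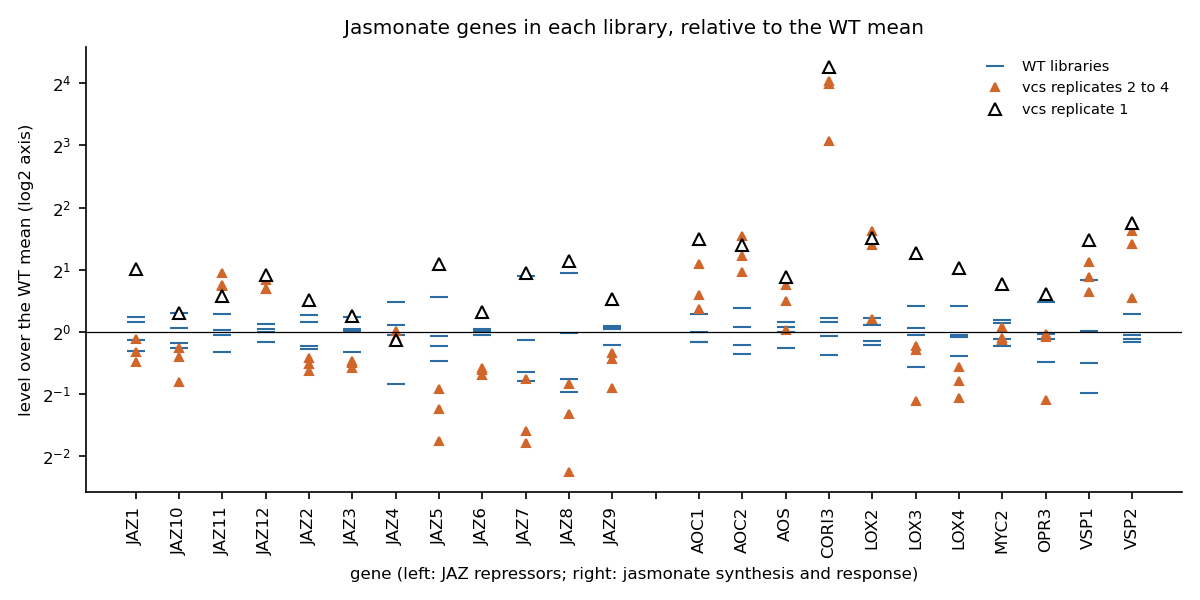
Level of 23 jasmonate genes in each library at 0 min, divided by the mean of the 4 WT libraries (log2 axis). Blue dashes are WT libraries, orange triangles vcs replicates 2 to 4 and open triangles vcs replicate 1, which stands above the other vcs libraries in most JAZ genes, in JAZ5 at 147 nuclear RPM against 20.2 to 36.4.

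Genes of nutrient and sugar response included some of the larger changes. Counts in these lists can be read against the 36.3% higher and 13.1% lower over all genes tested. LBD37 and LBD38, repressors of nitrate response, rose together: LBD37 from 39.3, 51.9, 69.9 and 64.5 nuclear RPM to 245, 256, 237 and 248, and LBD38 from 27.5, 44.4, 44.8 and 39.8 to 100, 146, 115 and 138 (log2 changes 2.15 and 1.67; limma adjusted p = 1.31e-06 and 2.00e-05). NIA2, the main nitrate reductase, was lower by 0.61 on nuclear RPM, which was not called on RPM as deposited, and the list had 6 of 14 higher and 2 lower, with 6 and 4 by edgeR. Among 17 root iron genes 6 were higher and 1 lower, with 3 and 2 by edgeR. FER1, the ferritin that stores iron, stood at 96.8, 122, 92.5 and 108 in WT and at 277, 280.4, 366 and 335 in vcs, while BHLH39, a factor that switches iron uptake on, rose from 0.968 ± 0.470 to 10.7 ± 4.21 (SD, n = 4). F6'H1, which makes the iron-mobilizing coumarin scopoletin, fell by 1.48. IRT1 and FRO2, the root transporter and reductase, were not called. Of 11 phosphate genes 7 were higher and 3 lower; PAP17, an acid phosphatase, rose by 1.67 and PHO1, which loads phosphate into xylem, fell by 0.95. Of 14 sugar starvation genes 6 were higher and 2 lower, with BAM5 at one end and ASN1, an asparagine synthetase induced in the dark, at the other. ASN1 fell by 1.13 (limma adjusted p = 0.0132), which was not called on RPM as deposited.

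Among wax genes, 2 of 10 were lower and none higher. CER1, which forms wax alkanes, stood at 25.4, 19.4, 19.0 and 26.9 nuclear RPM in WT and at 4.38, 2.54, 3.63 and 2.43 in vcs, 6.99-fold lower (log2 change -2.65, SE 0.20; limma adjusted p = 3.19e-08), and LACS1, an acyl-CoA synthetase for wax and cutin, fell by 1.15. The other 8 wax genes were not called, though edgeR called 4 of the 10 lower and RPM as deposited 6 higher and 2 lower. MAM3, which elongates glucosinolate side chains, fell from 63.3, 66.4, 70.4 and 52.7 to 10.6, 15.5, 19.4 and 13.6, while 4 of the other 18 glucosinolate genes were higher. Of 15 expansins, which loosen walls, 5 were higher and none lower, where 36.3% of all genes tested were higher and 13.1% lower. EXPA4 rose by 1.80 from 21.9 ± 6.11 (SD, n = 4). By edgeR and after centring, 5 expansins were higher and 3 lower. edgeR called 2 glucosinolate genes higher. Flavonoid genes had 1 of 11 higher and 3 lower, against 1 and 5 by edgeR and 1 and 1 without vcs replicate 1. Of 12 glutathione transferase genes 6 rose and 2 fell. In the tandem SAUR clusters 3 of 10 genes rose and 1 fell, with 1 and 1 by edgeR and without vcs replicate 1. Photoreceptor and PIF genes had 3 of 13 in each direction, with 2 higher and 6 lower after centring and 7 and 1 on RPM as deposited.

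Common reference genes for qPCR were not all level. Of 14, 4 were higher and 1 was lower, where 36.3% of all genes tested were higher and 13.1% lower. The median change of the list was -0.03. UBQ10 stood at 1200.0, 1278, 1482 and 1224 nuclear RPM in WT and at 1615, 2061, 2099.7 and 2068 in vcs (log2 change 0.59; limma adjusted p = 0.00122), ACT7 rose by 0.75 with overlapping groups, and PP2AA3 was lower by 0.25, which turned to 0.11 on RPM as deposited. edgeR called 3 higher and 5 lower, and RPM as deposited 9 higher and none lower. THI1, a thiazole synthase of thiamine formation, and AT1G62480, a vacuolar calcium-binding protein gene, were among the 10 largest gains, from 1020.5 ± 169.8 to 1953 ± 247 and from 255 ± 37.8 to 1081 ± 183 nuclear RPM (SD, n = 4).

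Markers of tissues were counted to show which cells the pools could hold. Over all genes tested 36.3% were higher and 13.1% lower. Xylem and secondary wall markers had 6 of 12 higher and none lower, and summed to 205 to 220 nuclear RPM in WT and 275 to 304 in vcs. VND6 and VND7, switches of vessel formation, rose by 1.23 and 1.04 from 1.99 ± 0.417 and 1.45 ± 0.190 (SD, n = 4), near the low end of what was fitted. Root hair markers had 3 of 7 lower and 1 higher and summed to 32.9 to 40.3 in WT and 20.4 to 30.0 in vcs; COW1, needed for tip growth, went from 10.6, 10.2, 6.98 and 7.78 to 1.92, 4.25, 2.1 and 2.27. Phloem markers had 1 of 6 in each direction (129 to 160 and 155 to 173), stomatal lineage markers 3 of 8 higher and 1 lower, with 3 and 2 by edgeR (73.8 to 85.0 and 84.4 to 101), shoot meristem and leaf polarity markers 3 of 11 and 2, with 1 and 3 by edgeR (213 to 239 and 229 to 251), and root tip and stele markers 2 of 4 and none (46.4 to 64.4 and 59.7 to 69.9). Seed storage and oleosin markers stayed at a trace, 3.64 to 4.70 in WT and 1.67 to 9.77 in vcs, with 1 of 6 higher and none by edgeR or without vcs replicate 1. Markers of shoot and root were thus present in both genotypes. The part of cell types in the differences above was not tested.

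**Figure D5:**
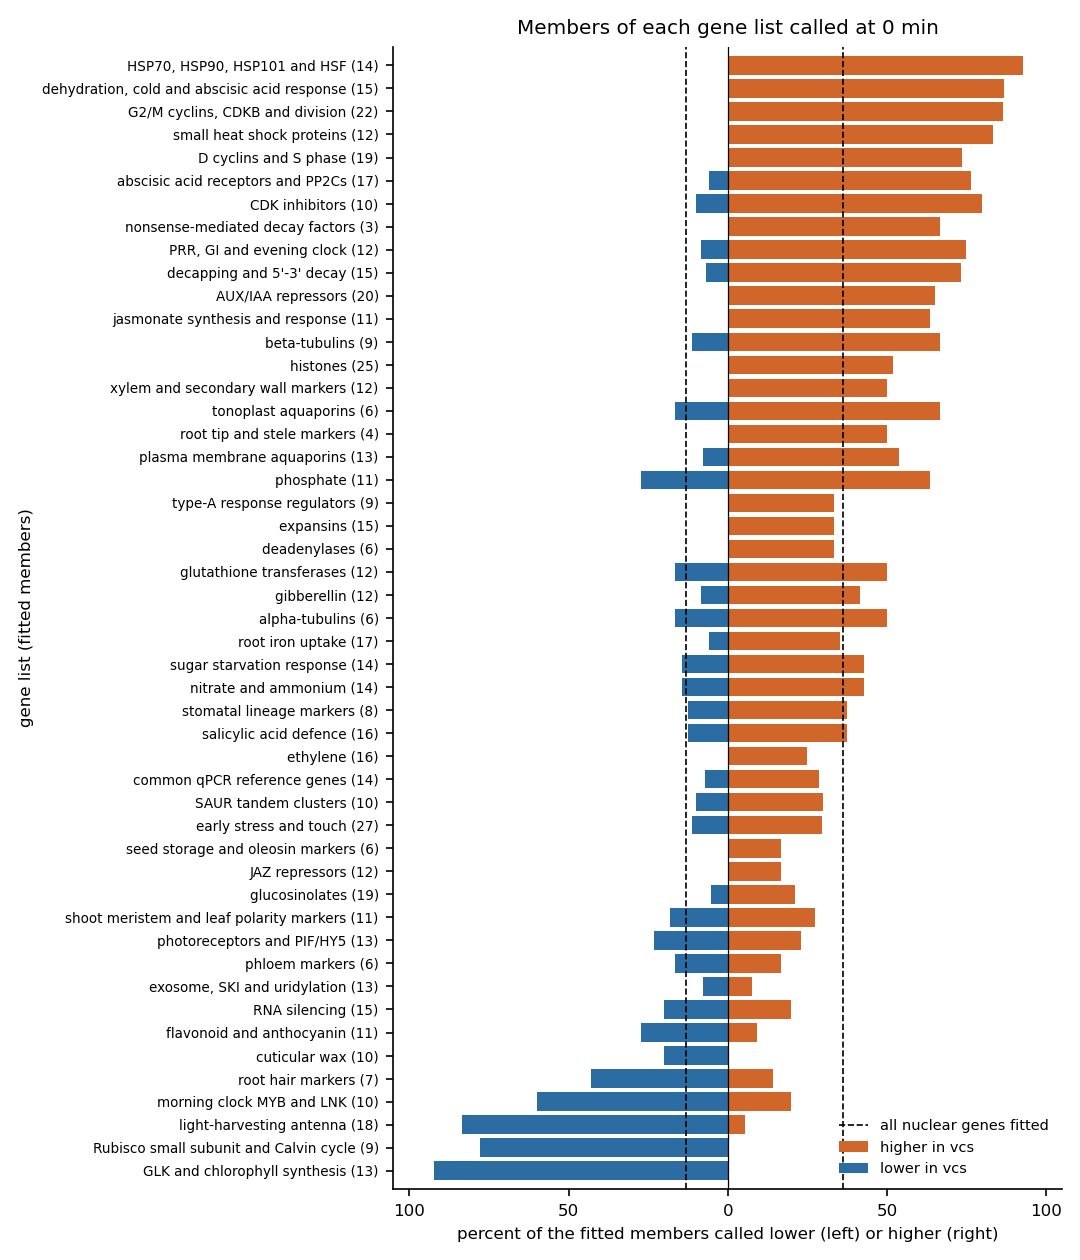
Percent of the fitted members of each of 49 gene lists that were called higher (orange, right) or lower (blue, left) in vcs at 0 min on nuclear RPM, with the number fitted in brackets. Dashed lines mark 36.3% higher and 13.1% lower over all nuclear genes; chaperone, dehydration and G2 and mitosis lists reach farthest right, and antenna, Calvin cycle and chlorophyll lists farthest left.

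The decline of transcripts after cordycepin was measured in libraries other than those at 0 min, though the genes were chosen by their 0 min levels. Slopes of log2 nuclear RPM over 7.5 to 120 min show decline relative to the other nuclear genes and not in absolute terms. They were taken for the 14763 genes with a 0 min mean of at least 5 nuclear RPM in both WT and vcs. This filter kept 658 of the 1392 genes higher by at least 1 log2 unit and 200 of the 360 lower. The genes were split evenly into 3 by their WT slope. Among the 4921 that declined most steeply, 38.2% were higher in vcs at 0 min and 10.8% lower, with a median change of 0.20. In the middle set the shares were 36.6% and 11.2%, and in the flattest 28.5% and 19.5%, with a median of 0.06. Genes higher in vcs by at least 1 log2 unit had a median slope of -0.28 log2 units per h in WT and -0.29 in vcs, against -0.17 and -0.13 for all 14763. Over the 4 courses of a genotype, the median slope of the 658 higher genes ran from -0.34 to -0.23 in WT and from -0.32 to -0.25 in vcs, so the ranges overlapped. The 200 genes lower by at least 1 had -0.15 and -0.07, and over the courses -0.18 to -0.12 in WT and -0.19 to -0.03 in vcs, which overlap. These are descriptions with no test.

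The effect of vcs-7 was also measured without the transgene, in vcs sov against sov, and the difference between the effects was tested in the same fit. It passed for 7767 of 19343 genes (40.2%), 3699 of them more positive without the transgene (19.1%) and 4068 more negative (21%). TUA2, TUA6 and TUA4 were raised less without the transgene, with differences of -1.29, -1.15 and -1.11 in log2 (SE 0.13, 0.11 and 0.12). CCA1, LHY and LNK2 were lowered less, with differences of 1.90, 1.54 and 1.35, and LHCB2.1 and LHCB2.2 too, with 1.89 and 2.25. Of all 18 antenna genes 3 had a more positive effect without the transgene and 5 a more negative one, and LHCB2.3 did not pass. NCED3, HAI1 and ABI1 were raised more, by 2.14, 3.80 and 1.56. TIP1;1 and PIP2;2 were raised more as well, by 1.17 and 1.62. For some genes the direction differed too. CER1 changed by -2.65 with the transgene and 3.20 without it, ACD6 by 1.93 and -2.74, and FER1 by 1.58 and -0.67. LHCB1.4 changed by 0.57 and -1.39, ASN1 by -1.13 and 0.65, and LNK1 by -1.23 and 0.53. The rises of TIP2;3, LUX, CYCB1;4 and LBD37 did not pass this test, with differences of 0.20 (SE 0.28), -0.37 (SE 0.16), -0.19 (SE 0.15) and -0.28 (SE 0.31).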

How the data were processed

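RNA was extracted on columns, treated with DNase I, depleted of rRNA (Plant RiboZero) and sequenced from TruSeq Stranded libraries, per the labels' protocols. The submitters' processing notes name TAIR10 as the build, TopHat2 2.0.12 and Bowtie2 2.2.3, HTSeq 0.6.1, and SAMtools, FastQC and R 3.1.0; the strand setting of the counting is not given in the sources used here, so antisense and overlapping genes are uncertain. The authors deposited RPM for 28775 genes in 128 libraries (28496 nuclear, 133 plastid, 146 mitochondrial). The RPM values are whole reads in 100% of cases within 0.01 reads, so reads were recovered for edgeR. A second table by the authors gives RPKM per genotype, log2 fold changes and adjusted p-values (DESeq2, per the file headers), with no replicates.

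RPM was rescaled to the nuclear total (AT1G to AT5G genes). limma 3.58.1 (trend, robust) was fitted to log2(nuclear RPM + 0.5) in R 4.3.3 on the 16 libraries of 4 genotypes at 0 min, for 19343 genes of at least 1 RPM on average in a genotype, with Benjamini-Hochberg adjustment at 0.05. Fold changes on this scale understate the change of low genes. edgeR 4.0.16 (quasi-likelihood) was the count-based alternative. The limma fit was also run on simulated reads with few genes changed, evenly in both directions. That setting differs from these data and cannot test the dependence on scaling. Tables and figures used Python 3.11.15, pandas 2.3.3, numpy 2.4.6, scipy 1.17.1 and matplotlib 3.10.9. Gene names and promoter windows came from RefSeq (TAIR10.1), which matched 28009 IDs; the files give no coordinates. The 49 gene lists held 680 members, of which 619 passed the filter on low values; 1 further gene is not reported here.

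The samples and lists were chosen with earlier results of these data known. Named genes were VCS, SOV, VCR and their 5 neighbours on each side, the 15 largest rises and falls without overlap at 5 RPM or more, the 10 largest gains and losses in RPM, genes with at most 3 reads in a genotype, and up to 6 members of each list with the largest change. TOC1 and CYCB2;3 were named for their promoters, after values were seen. The labels do not say whether the pools of a genotype were grown separately, so p-values measure the spread between these samples. Alternatives were the scaling, filter, pseudocount, tool, libraries in the fit, a replicate block and each library left out. A table of library sizes whose sample names differ by letter case was not used here.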

Additional observations from a re-analysis of the deposited data

Results flagged for a closer look

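In a set of 4 libraries, 1 library can stand apart from the other 3 by more than a gap test allows at the 95% level, which chance gives in about 1 of 20 sets. Each of the 134 genes named gave 1 set in WT and 1 in vcs, and 25 of these sets held such a library. In WT, 1 library lay above the others for GID1B at 25.1, ZAT6 at 48.4, KIN1 at 12.5, HAI1 at 1.48, PAP17 at 10.06, AT5G24080 at 0.116 and GASA6 at 56.1 nuclear RPM, and below them for PAT1H1 at 30.5, TUA5 at 275, KRP4 at 11.9, PP2AA3 at 52.8 and AT1G62480 at 198. In vcs, 1 library lay above the others for HEMA1 at 225, CYCB1;4 at 49.1, JAZ5 at 147, COW1 at 4.25, AT5G44440 at 72.0, 5PTASE11 at 29.9 and RBCS2B at 3254, and below them for TUA3 at 249.97, GUN5 at 1115, EXPA4 at 65.4, UBQ10 at 1615, AT5G24080 at 4.48 and AT5G10760 at 5.68 nuclear RPM.

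The effect of vcs-7 differed between the SOV backgrounds for 72 of the genes named (limma interaction, adjusted over 19343 genes, of which 40.2% passed). Each value here is the log2 change without the transgene less that with it. For genes of RNA decay the differences were VCS 0.81, SOV 0.58, PAT1H1 0.31 and RRP44A -0.67, and the gene AT1G77660 beside SOV had 1.12. Tubulin genes had TUA1 0.81, TUA2 -1.29, TUA3 -0.45, TUA4 -1.11 and TUA6 -1.15, and aquaporin genes TIP1;1 1.17, TIP1;2 0.52, TIP2;1 0.72, TIP2;2 0.70, PIP2;2 1.62 and PIP2;5 2.34. For clock genes they were LNK2 1.35, CCA1 1.90, LHY 1.54, RVE8 0.67, LNK1 1.76, PRR3 -1.73 and TOC1 -0.50. Photosynthesis genes had LHCB2.1 1.89, LHCB2.2 2.25, LHCB4.2 0.90, LHCB1.4 -1.96, CAB1 -0.69, CAO 1.43, CRD1 0.50, SBPASE -0.51, RBCS1A -1.29, RBCS2B -1.75 and DRT112 -0.80. In hormone and stress lists the values were HSP17.6B 0.84, IAA28 -0.45, ARR5 0.55, GID1A 1.05, GID1B 0.85, GID1C 0.65, CORI3 2.80, ACD6 -4.66, ICS1 1.03, ZAT6 0.89, NCED3 2.14, KIN1 0.98, HAI1 3.80, ABI1 1.56 and PP2CA 1.09. CER1, which fell with the transgene and rose without it, had the largest of the differences listed here, 5.84. ACD6, which rose with the transgene and fell without it, had the most negative. Nutrient, wall and marker genes had FER1 -2.25, F6'H1 -2.29, PAP17 1.305, PHO1 0.45, ASN1 1.78, BAM5 2.24, LACS1 -1.99, EXPA4 -0.94, MAM3 -1.73, VND7 1.27 and COW1 1.81. Among the largest rises, falls, gains and losses they were AT1G20070 0.78, AT5G24080 2.21, AT2G37870 4.298, AT4G33550 2.88, 5PTASE11 3.93, GASA6 1.201, PYK10 -0.75, THI1 -0.64, AT1G62480 -0.75, AT2G07732 -0.70 and AT1G15405 0.79.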

How the results depend on the processing

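The counts of 7022 genes higher and 2528 lower moved most with the scaling. They were 13062 and 842 on RPM as deposited, 3937 and 5155 with libraries centred on their nuclear medians, 4478 and 4479 with edgeR and TMM factors, and 4419 and 4541 with edgeR and RLE factors. Other settings stayed within 1.5 times: a minimum of 5 RPM gave 5767 and 2066, no minimum 7145 and 2732, the 8 libraries alone 6985 and 2581, pseudocounts of 0.1 and 1 gave 6996 and 2510, and 7021 and 2534. Leaving out rRNA and organelle-like genes, chosen after seeing the data, gave 6806 and 2607. Leaving out 1 library gave 6206 to 7111 higher and 2187 to 2406 lower. The 7767 genes with a different effect by SOV background ranged from 6969 to 7983 with 1 library left out and from 7879 to 8063 over the other scalings.

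The nuclear share differed by 13.3 to 14.6 percentage points with 1 library left out, where the smallest exact permutation p that 3 against 4 allow is 0.0571. WT and vcs libraries with the same replicate number shared deviations from their group with correlations of 0.31, 0.20, 0.21 and -0.05. For WT with sov these were 0.36, 0.13, 0.23 and 0.08, and for sov with vcs 0.27, -0.07, 0.30 and 0.11. The main fit did not take the numbers as pairs, and the labels do not say what libraries of the same number share. With a replicate block the share differed by 14.1 points (paired exact permutation p = 0.125, the smallest 4 pairs allow). In that setting 7462 genes were higher and 2760 lower, and 8641 had a different effect by background, each more than in the main fit.

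Of 128 named genes called, LHCB1.4 alone lost the call when some library was left out. Other settings ended calls too: PYK10 and LHCB1.4 with edgeR and after centring, and CAB1, CAB2, NIA2 and ASN1 on RPM as deposited. TUA3 was called lower with edgeR and after centring, JAZ5 lower without vcs replicate 1, and TIP2;1 and RBCS1A higher on RPM as deposited. Of the called genes, TUA1 and PP2AA3 changed sign in some setting. On RPM as deposited, TUA1 had 0.0054, TUA3 0.19, TUA5 0.32 and PP2AA3 0.11. The log2 change of TUA5 was -0.0891 to 0.0428 with 1 library left out, positive without vcs replicate 1. The log2 change of RBCS1A was -0.0625 after centring, -0.0098 with TMM and -0.0152 with RLE. Depth limits the genes at few reads: a gene at 3 reads in the shallowest WT library stands at 0.350 nuclear RPM.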
